A study of Mus musculus with 29 samples.

Results

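Delayed against acute tacrolimus after stroke is the comparison of 8 of the 29 libraries of the series. Its members were chosen by the sample labels alone: 5 stroked mice labelled WT_IM_del, which received delayed tacrolimus (delayed WT-Tacr), and 3 stroked mice labelled WT_IM, which received tacrolimus from the day of stroke (acute WT-Tacr). The series measured cortical transcripts by RNA sequencing in wildtype (WT) mice and in mice with a weakened immune system, with and without a photothrombotic stroke. In both WT-Tacr groups the mice were C57BL/6 WT animals, 3 months old, with a light-induced clot in the right sensorimotor cortex, and tissue was taken at 21 days post injury (dpi). Tacrolimus came from a pump placed under the skin. It ran from the day of stroke in the acute group and from a week later in the delayed group, so the start and the length of drug exposure differ together and cannot be told apart. For reference, 4 stroked WT mice without tacrolimus (untreated stroke) and 4 non-stroked WT mice were used, while tacrolimus without stroke was not analysed here.

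Tacrolimus binds the protein FKBP12, and the complex blocks calcineurin, the phosphatase that sends NFAT transcription factors to the nucleus. In T cells this stops the transcription of interleukin-2 and other cytokines, which is why the drug is used against graft rejection. After a cortical infarct, microglia and blood-derived macrophages clear dead tissue, astrocytes around the lesion raise intermediate filaments such as GFAP, and fibroblasts lay down collagen in the lesion core, while transcripts of lost neurons decline in the sampled piece.

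Total counts ran from 17789044 to 28968103 in the delayed libraries and were 43403413, 24421591 and 24124783 in acute 1, 2 and 3. All 5 delayed libraries, acute 2 and acute 3 carry the title prefix TF, whereas acute 1 carries the prefix Imm2. Ddx3y, a gene on chromosome Y, was at 43.2 CPM (counts relative to the TMM-adjusted library total) in acute 1 and at 0 in the other 7 libraries, so the sex marker, the prefix and acute 1 cannot be told apart. The study used both sexes, but none of the 5 delayed libraries held transcripts of this gene. For acute 1 and acute 2, moreover, the animal number in the title is not the number under which the counts were deposited. The titles were used.

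The 3 acute libraries did not resemble each other. Between untreated stroke and non-stroked WT mice 1152 genes were higher after stroke, and the mean log2 CPM change of these genes was set to 100% for untreated stroke. On this scale acute 1 stood at 31.0%, acute 2 at 11.8% and acute 3 at 107.6%. The untreated stroke libraries, from which the genes were chosen, split by prefix, at 83.7% and 82.7% with Imm2 and at 110.8% and 122.9% with TF. All non-stroked WT libraries carry Imm2 and had Ddx3y at 49.2 to 52.7 CPM, whereas the untreated TF libraries had 0. The delayed libraries, all TF, stood at 107.3%, 125.9%, 133.1%, 115.3% and 160.2%. Acute 3 thus lay just above the lowest delayed library, and acute 2, which is labelled as stroked, lay close to the non-stroked mice at -5.2% to 2.9%. Over the 92 genes lower after stroke the order differed, with acute 1 at 46.7%, acute 2 at 59.9% and acute 3 at 110.1%, the delayed libraries at 88.0% to 117.2% and the non-stroked ones at -29.6% to 19.0%. This order depended on the gene choice. Over the 26 lower genes called within the Imm2 libraries, acute 1 was at 71.7%, acute 2 at 34.0% and acute 3 at 80.8%. The delayed libraries were then at 59.6% to 70.9%. Over the 677 higher genes of that fit the acute libraries were at 34.7%, 10.6% and 105.3%. Over the 1152 higher genes, within the prefix TF, the distance between acute 2 and acute 3 was as wide as that between acute 2 and the lower delayed libraries. Relative to the delayed mean, 1880 genes in acute 1, 2180 in acute 2 and 304 in acute 3 were more than 2-fold lower. With only 3 acute libraries, the p-values below come from 1 fit of all 29 libraries in 8 groups. The spread they use is pooled over these groups and is not that of the acute libraries alone.

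**Figure D1:**
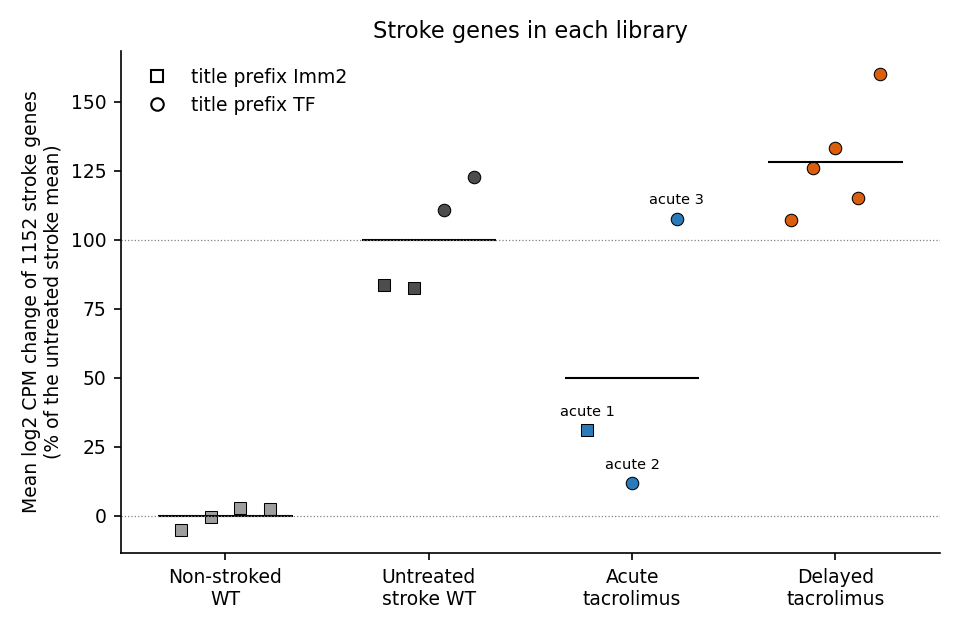
Mean log2 CPM change of 1152 genes that were higher in untreated stroked than in non-stroked WT mice, as a percentage of the untreated stroke mean, for 16 WT libraries; points are libraries, squares carry the title prefix Imm2 and circles TF, and horizontal lines are group means. Acute 1 (31.0%) and acute 2 (11.8%) lie below all 5 delayed libraries, and acute 3 (107.6%) lies next to the lowest of them (107.3%).

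Across all 17031 genes tested, 979 differed by more than 1 log2 unit in either direction with an edgeR adjusted p under 0.05, and these are the genes named as called here. Of these 889 were higher in delayed WT-Tacr (5.22% of genes tested) and 90 were lower (0.528%), and the median log2 fold change of all genes was -0.02. Without the minimum fold 1769 genes were higher and 1696 lower. At an unadjusted p below 0.05 there were 6003 genes, against 852 expected by chance. The 5 delayed libraries lay above all 3 acute libraries for 1501 genes (8.81%) and below them for 1532 genes (9.0%), among them 490 of the genes called higher and 28 of those called lower. Of the 889 higher genes, 640 were also higher after stroke in untreated WT mice, as were 1152 of all 17031 genes. Of the 90 lower genes 16 were also lower after stroke, as were 92 of all genes. Both contrasts come from 1 fit but share no library.

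These calls rested on acute 1 and acute 2 together, and this holds for each list and gene called below. Leaving out acute 1 gave 0 genes in edgeR's test (3849 at an unadjusted p below 0.05, smallest adjusted p = 0.102), and leaving out acute 2 gave 0 genes as well (4443, smallest adjusted p = 0.0955 in edgeR's test). Leaving out acute 3 raised the count to 1927, with 1608 genes higher (9.32%) and 319 lower (1.85%). Without delayed 5 the count was 432. Within the prefix TF, 5 delayed against 2 acute libraries, 0 genes were called by edgeR and 4132 passed an unadjusted p below 0.05. A fit of the 8 libraries alone also called 0 genes by edgeR (5480 at an unadjusted p below 0.05, smallest adjusted p = 0.0741), while DESeq2 called 1089 and limma voom with sample weights 1021 in the fit of all libraries. Set alone against the 5 delayed libraries, with the spread taken from the other groups, acute 1 differed by 1698 and acute 2 by 1404 genes, but acute 3 by 0 genes in edgeR's test (207 at an unadjusted p below 0.05, fewer than the 883 expected by chance). The spread itself differed: over the 979 genes the median SD of log2 CPM was 0.87 among the acute and 0.47 among the delayed libraries. For 394 of the 889 higher genes acute 3 lay within the range of the delayed libraries.

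**Figure D2:**
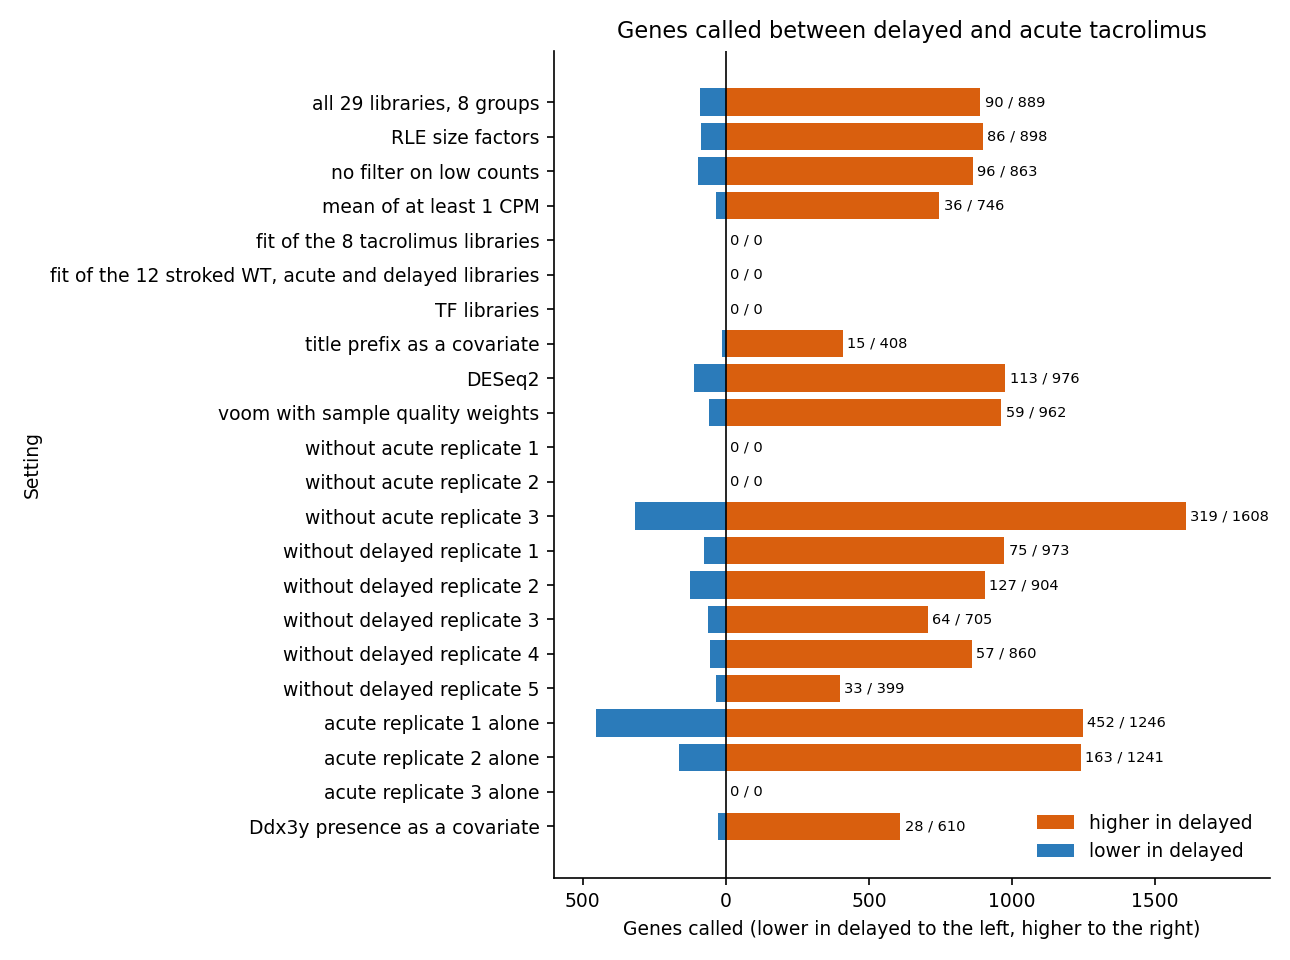
Number of genes called lower (left, blue) and higher (right, orange) in delayed than in acute WT-Tacr mice, in the fit of all libraries and under each alternative; the numbers beside the bars give lower and higher calls. The bars vanish without acute 1, without acute 2, within the TF libraries, in the fits of 8 and of 12 libraries and for acute 3 alone, the bar of higher calls is longest without acute 3 (1608), and that of lower calls is longest for acute 1 alone (452).

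Genes of disease-associated microglia, the state in which microglia engulf debris and lipid, were higher in delayed WT-Tacr mice for 15 of 23 members, and 0 were lower. Of all genes tested 5.22% were called higher and 0.528% lower, and 8.81% lay higher and 9.0% lower without overlap. These shares stand beside the counts of each list below. The median log2 fold change of the list was 1.32. Trem2, a lipid receptor needed for this state, was at 14.2, 12 and 51.5 CPM in acute 1, 2 and 3 and at 52.7, 64.9, 84.0, 56.2 and 79.2 CPM in delayed 1 to 5. All delayed values lay above all acute values, though acute 3 fell only just short of the lowest one, and the log2 fold change was 1.39 ± 0.304 (± SE for fold changes here, ± SD for CPM with n = 3 acute and n = 5 delayed; edgeR adjusted p = 0.0102). Itgax, which encodes the integrin CD11c, had 0.974, 0.375 and 12.7 CPM in the acute and 15.1 to 43.7 CPM in the delayed libraries (log2 fold change 2.44 ± 0.648, edgeR adjusted p = 0.0139). Spp1, the gene of the secreted protein osteopontin, averaged 63.4 ± 87.7 CPM in the acute and 252 ± 86.5 CPM in the delayed libraries. Lgals3, which encodes the lectin galectin-3, reached 52.1 CPM in acute 3, close to delayed 1 at 52.6 CPM and above delayed 4 at 37.2 CPM, but was at 2.99 and 0.250 CPM in acute 1 and 2. The lysosomal protease gene Ctsd was higher without overlap (594 ± 409 against 1370 ± 224 CPM, log2 fold change 1.21), whereas Cd68, a lysosomal membrane marker, overlapped by acute 3 at 49.9 CPM. Aif1, the gene of Iba1, was the only called member of the homeostatic microglia list (1 of 16), with 2.92, 4.37 and 10.5 CPM in the acute and 9.46 to 15.3 CPM in the delayed libraries (log2 fold change 1.11 ± 0.271, edgeR adjusted p = 0.0117). Without the minimum fold 9 of these 16 genes passed the adjusted p higher and 1 lower, and their median log2 fold change was 0.55. Over all 17031 genes tested 1769 passed higher and 1696 lower. Without acute 1, 2 or 3 the median of the disease-associated list was 0.99, 1.04 and 2.15, and 0, 0 and 18 members were called higher.

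Macrophages that enter from the blood or line the vessels and meninges have markers of their own. Of 16 such genes 11 were higher and 0 lower (5.22% and 0.528% of all genes tested), with a median log2 fold change of 1.75. For 10 of the 16 the delayed libraries lay higher without overlap (8.81% of all genes tested). This list held several genes for which acute 3 stood with the other acute libraries. Mrc1, the mannose receptor of border macrophages, was at 5.48, 3.79 and 6.03 CPM in the acute libraries and at 10.5, 12.3, 14.4, 8.46 and 21.6 CPM in the delayed ones (log2 fold change 1.39 ± 0.288, edgeR adjusted p = 0.0102). F13a1, which encodes a subunit of coagulation factor XIII, was likewise even among the acute libraries (2.82 ± 0.486 CPM) and higher in the delayed ones (6.52 ± 2.05 CPM, log2 fold change 1.21). For Mrc1 and F13a1 the log2 fold changes without acute 1, 2 or 3 stayed between 1.07 and 1.5, although neither passed within the TF libraries (edgeR adjusted p = 0.159 for both). The scavenger receptor gene Msr1 rose from 1.26 ± 1.22 to 6.26 ± 2.83 CPM (log2 fold change 2.32 ± 0.567, edgeR adjusted p = 0.0117). Mmp12, the macrophage elastase, had 3.33, 0 and 13.9 CPM in the acute and 14.6, 32.9, 31.2, 9.28 and 119 CPM in the delayed libraries, so that acute 3 exceeded delayed 4. Ms4a7, a membrane protein of macrophages, overlapped too, with acute 3 at 7.84 CPM above delayed 1 and 4 at 7.36 and 7.29 CPM. Leaving out acute 1, 2 or 3 gave medians of 1.54, 1.53 and 2.24 and 0, 0 and 13 called members.

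Reactive astrocyte genes were higher for 11 of 22 members and lower for 0 (median log2 fold change 1.39). Gfap, the intermediate filament of astrocytes, was at 267, 189 and 928 CPM in the acute and at 1020, 1240, 1320, 1170 and 1050 CPM in the delayed libraries, against 102 to 172 CPM in non-stroked WT mice. Its delayed values lay above all acute ones (log2 fold change 1.33 ± 0.341, edgeR adjusted p = 0.0127), and against acute 3 alone the log2 fold change was 0.32. Vim, the second filament gene, averaged 86.1 ± 93.9 and 231 ± 46.3 CPM, with acute 3 at 194 CPM inside the delayed range. Serpina3n, an acute-phase protease inhibitor, was at 37.1, 12.3 and 146 CPM in the acute and within 177 to 218 CPM in the delayed libraries. Osmr, the oncostatin M receptor, had 9.98, 4.41 and 11.2 CPM against 13.9 to 23.2 CPM (log2 fold change 1.07 ± 0.295, edgeR adjusted p = 0.0162). Genes of astrocyte identity were not called (0 of 14, median 0.08). Within that list the water channel gene Aqp4 passed the adjusted p below the minimum fold (log2 fold change 0.73), and Aldoc, a glycolytic enzyme of astrocytes, had a log2 fold change of -0.25 that did not pass (edgeR adjusted p = 0.12). The reactive list had medians of 1.17, 0.99 and 2.83 without acute 1, 2 or 3, and 0, 0 and 19 members called.

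Fibrotic scar genes gave 16 higher and 0 lower of 22 members (5.22% and 0.528% of all genes tested) and a median log2 fold change of 1.55. Without overlap 12 members lay higher and 1 lower (8.81% and 9.0% of all genes tested). Col1a1 and Col3a1, chains of the fibrillar collagens I and III, averaged 36.5 ± 45.4 and 28.1 ± 39.8 CPM in the acute and 179 ± 106 and 150 ± 101 CPM in the delayed libraries (log2 fold changes 2.30 and 2.42, edgeR adjusted p = 0.023 and 0.0276). In both cases acute 3 lay above delayed 4, and delayed 5 was the highest by far. Col8a1, a short-chain collagen of vessel walls, instead was even among the acute libraries (5.50, 5.66 and 4.87 CPM) and higher in each delayed one (14.6, 9.89, 18.3, 11.7 and 34.7 CPM, log2 fold change 1.73 ± 0.548, edgeR adjusted p = 0.0286). Lum, a collagen-binding proteoglycan, rose from 5.89 ± 6.68 to 40.1 ± 29.1 CPM (log2 fold change 2.78), and Postn, a matricellular protein, from 4.63 ± 3.74 to 13.4 ± 4.42 CPM (1.53). The crosslinking enzymes Lox and Loxl2 had log2 fold changes of 1.81 and 2.09 without overlap. Of 20 matrix metalloproteinase and Timp genes 5 were higher, among them the gelatinase Mmp2 (3.74 ± 3.12 against 15.4 ± 8.24 CPM) and the membrane-bound Mmp14 (17.1 ± 10.8 against 41.0 ± 16.3 CPM). Of 17 proteoglycan and tenascin genes 3 were higher, including Bgn (biglycan, log2 fold change 1.66) and Tnc (tenascin C, 1.08), while Cspg4, the gene of NG2, did not pass (0.29 ± 0.159, edgeR adjusted p = 0.202). Medians of the scar list were 1.37, 1.25 and 2.13 without acute 1, 2 or 3, with 0, 0 and 15 genes called higher.

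**Figure D3:**
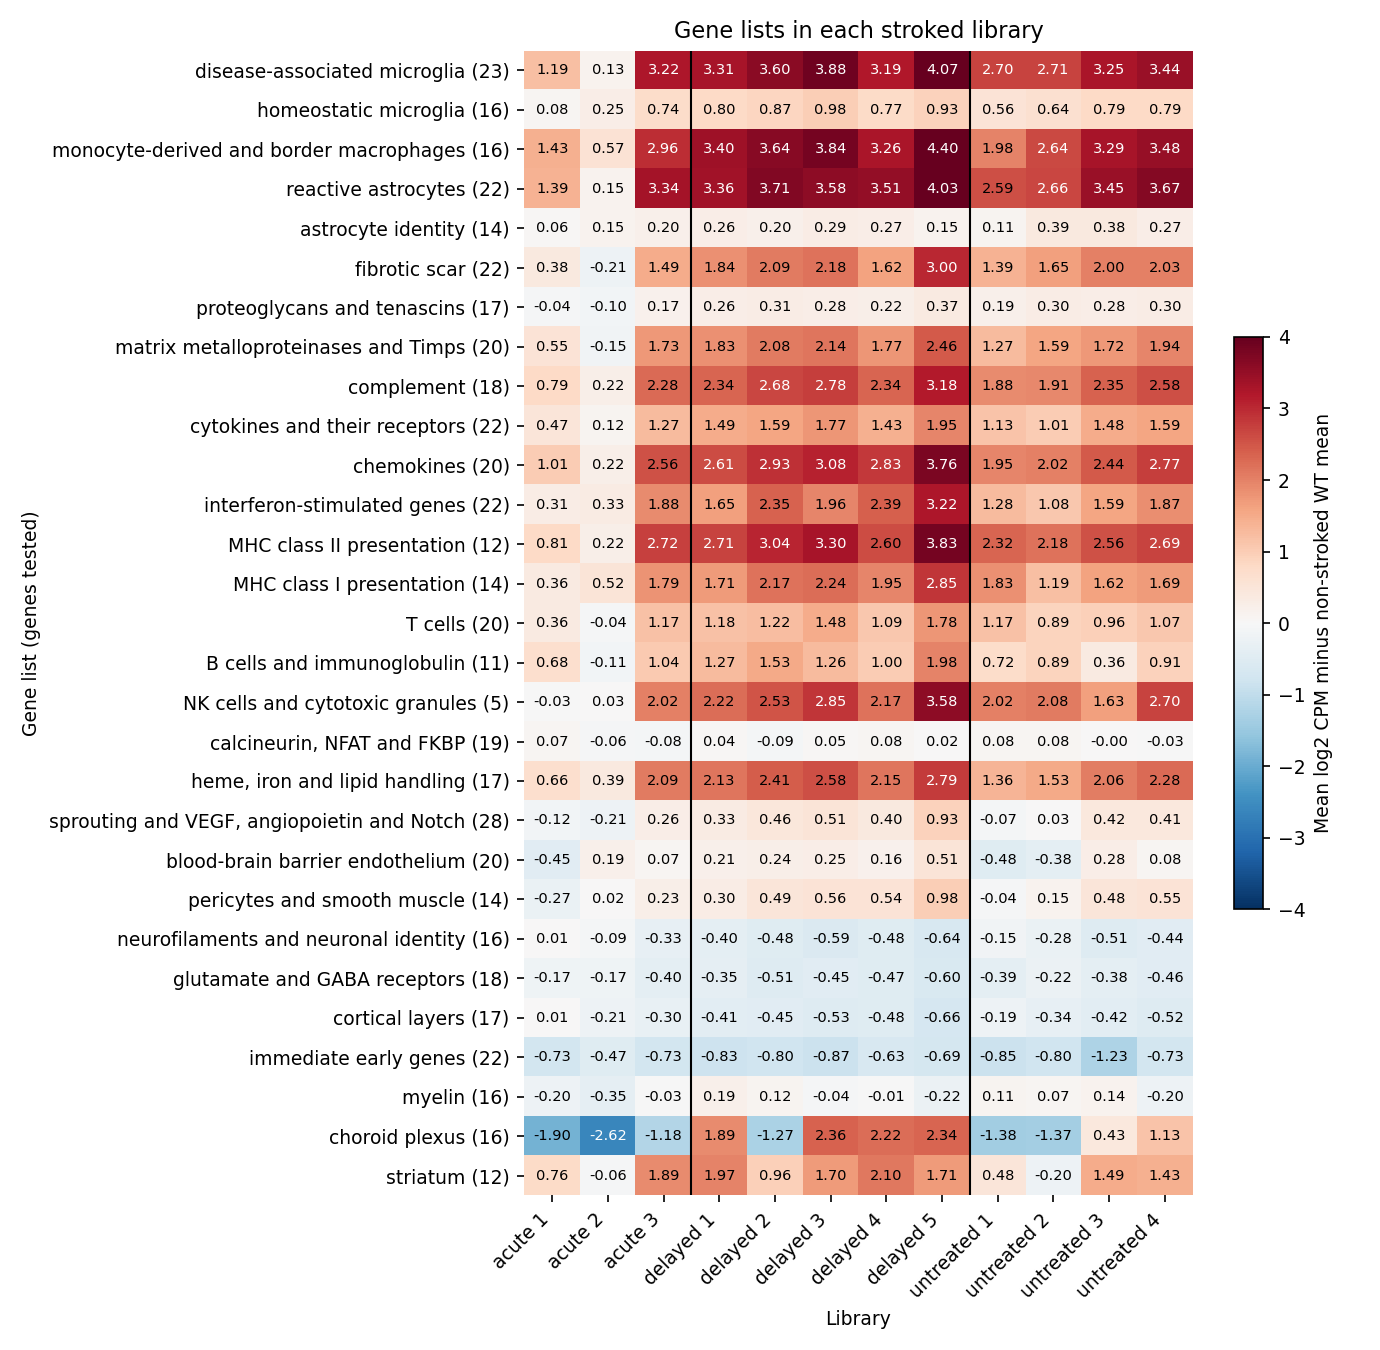
Mean log2 CPM difference from the mean of the 4 non-stroked WT libraries for 29 gene lists (rows, genes tested in brackets) in the 3 acute, 5 delayed and 4 untreated stroke libraries (columns). For disease-associated microglia acute 2 stays near 0 (0.13), acute 1 is intermediate (1.19), and acute 3 (3.22) lies within the delayed libraries (3.19 to 4.07).

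Complement, the cascade that tags cells and synapses for removal, was higher for 12 of 18 genes and lower for 0 (median log2 fold change 1.29). The chains of C1q, the recognition unit made by microglia, moved alike, with C1qa at 104 ± 78.8 and 235 ± 40.4 CPM, C1qb at 97.8 ± 75.2 and 238 ± 45.1 CPM, and C1qc at 85.0 ± 69.7 and 208 ± 39.7 CPM. C4b, which carries the cascade on, was at 44.7, 21.6 and 217 CPM in the acute and at 207, 334, 289, 272 and 324 CPM in the delayed libraries (log2 fold change 1.59 ± 0.447, edgeR adjusted p = 0.0172), so that acute 3 overlapped delayed 1. The receptor gene C3ar1 (log2 fold change 1.82) and the inhibitor gene Serping1 (1.77) were called as well. Leaving out acute 1, 2 or 3 gave medians of 1.09, 0.99 and 2.11.

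Among cytokines and their receptors 7 of 22 tested genes were higher and 0 lower (median 0.89), and among chemokines 8 of 20 were higher and 0 lower (median 1.65). Tnf and Il1a, cytokines of activated microglia, were low throughout. Tnf had 0.0243, 0.125 and 0.232 CPM in the acute and 0.226 to 0.703 CPM in the delayed libraries (log2 fold change 1.94 ± 0.634, edgeR adjusted p = 0.0329). Il1a averaged 0.851 ± 0.536 and 2.20 ± 0.735 CPM. Osm, a ligand that drives astrocyte reactivity through the receptor named above, was at 0.292 ± 0.116 and 0.842 ± 0.285 CPM without overlap, and the receptor gene Tnfrsf1b at 7.70 ± 5.31 and 21.0 ± 6.95 CPM. Ccl8, a monocyte attractant, was at 0.122, 0.0416 and 1.31 CPM in the acute and at 1.69, 4.13, 3.93, 1.86 and 8.63 CPM in the delayed libraries (log2 fold change 3.08 ± 0.754, edgeR adjusted p = 0.0118). Cxcl9 and Cxcl10, which interferon induces and which attract T cells, had log2 fold changes of 3.35 and 2.25, with acute 3 inside the delayed range for both. Without acute 1, 2 or 3 the cytokine median was 0.81, 0.65 and 1.27 and the chemokine median 1.33, 1.14 and 2.89.

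Interferon-stimulated genes are switched on when STAT and IRF factors bind the interferon-stimulated response element in their promoters. Delayed WT-Tacr mice had 16 of 22 such genes higher and 0 lower, with a median log2 fold change of 1.5. Isg15, a ubiquitin-like modifier, was at 0.365, 1.17 and 3.17 CPM in the acute and at 3.34, 5.83, 3.19, 5.98 and 12.8 CPM in the delayed libraries (log2 fold change 2.02 ± 0.538, edgeR adjusted p = 0.0142). Its protease Usp18 also did not overlap (1.39 ± 1.27 against 4.79 ± 2.09 CPM). For most of the list the acute 3 library was within the delayed range (19 of 22 genes), as for Ifit1, an RNA sensor, at 6.88 CPM against 4.54 to 21.9 CPM, and for Irf7, the amplifying transcription factor, at 6.64 CPM against 5.39 to 21.0 CPM. Delayed 5 held the highest value of Isg15, Ifit1, Irf7, Oasl2 (45.5 CPM), Oas1a (5.36 CPM) and Zbp1 (5.36 CPM). Medians were 1.18, 1.17 and 2.22 without acute 1, 2 or 3, and 0, 0 and 19 members were called.

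To show what these genes have in common in sequence, the 250 bases before each RefSeq transcription start (GRCm38.p6) were searched for GAAA, any 2 bases and GAAA again, the core of the interferon-stimulated response element, on both strands and counting overlapping matches. A match was found for 9 of the 15 list members with a promoter in the table and for 3.20% of the 12275 tested genes with one. The genes called higher held it in 9.19% of 653 promoters. The NFAT core GGAAAA, searched in the same way, was in 24.3% of the promoters of higher genes and in 21.5% of all, as well as in 7 of the 15 interferon-stimulated and 3 of 8 MHC class II promoters. In the Isg15 and Bst2 sequences below GGAAAA overlaps a marked match, so the counts of these motifs are not separate. The 60 bases around the match nearest the start are given 5′ to 3′ on the gene's strand for 4 called genes, with the matches, also those on the opposite strand (TTTC, any 2 bases, TTTC), in capitals.
Isg15, chr4:156200850-156200909, minus strand: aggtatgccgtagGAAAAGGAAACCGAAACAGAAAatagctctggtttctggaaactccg
Ifit1, chr19:34640779-34640838, plus strand: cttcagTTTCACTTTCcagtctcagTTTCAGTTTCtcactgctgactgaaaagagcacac
Bst2, chr8:71537562-71537621, minus strand: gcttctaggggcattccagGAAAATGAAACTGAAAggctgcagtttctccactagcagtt
Oas1a, chr5:120907526-120907585, minus strand: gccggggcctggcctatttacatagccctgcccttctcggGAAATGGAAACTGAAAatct
In Isg15 there were 3 overlapping matches ending 56 bases before the start. Oas1a had 2 overlapping matches, the nearer one 4 bases before the start. A match describes the letters only and is not a bound site.

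MHC class II shows peptides taken up by phagocytes to CD4+ T cells, and MHC class I shows peptides made inside a cell to CD8+ T cells. For class II 10 of 12 genes were higher and 0 lower (median 1.52), and for class I 9 of 14 were higher and 0 lower (median 1.31). H2-Aa, a class II chain, was at 1.95, 1.25 and 25.1 CPM in the acute and at 20.8, 36.7, 48.6, 19.5 and 84.2 CPM in the delayed libraries (log2 fold change 2.17 ± 0.639, edgeR adjusted p = 0.0213). Acute 3 was above delayed 1 and delayed 4, and the other acute libraries were far lower, with a non-stroked mean of 0.711 CPM. Cd74, the invariant chain, and Ciita, the regulator of class II transcription, had log2 fold changes of 1.97 and 1.84. H2-DMb1, which loads peptides, was one of the higher genes with the smallest p and did not overlap (1.22, 1.5 and 3.48 CPM against 4.42 to 9.77 CPM, log2 fold change 1.64 ± 0.302, edgeR adjusted p = 0.0102). In class I, H2-K1 rose from 40.6 ± 28.7 to 103 ± 33.1 CPM, the peptide transporter gene Tap1 from 3.87 ± 2.24 to 11.8 ± 5.25 CPM, and the class I regulator Nlrc5 from 2.33 ± 1.84 to 7.93 ± 4.14 CPM. Counts for the class I genes H2-K1 and H2-Q members may share reads between near-identical copies. Class II medians without acute 1, 2 or 3 were 1.23, 1.19 and 2.19, and class I medians 0.95, 1.02 and 2.08.

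Lymphocyte transcripts were few in all 8 libraries, so their differences rest on small counts. Of 24 listed T cell genes 20 passed the filter on low counts, and 4 of these were higher and 1 lower (median 0.88). Of 15 listed B cell genes 11 passed, and 3 of these were higher (median 0.83). Of 10 listed natural killer (NK) cell genes 5 passed the filter on low counts, and 3 of these were higher (median 2.19). The 3 higher NK genes had at most 4 counts in any acute library, so they passed the filter through other libraries. The NK median may thus follow partly from the filter and lends no support to a difference. Counts and medians of the T and B cell lists may follow partly from this filter too, and lend no support either. Cd28, the costimulatory receptor of T cells, had 3, 2 and 29 counts in the acute and 22 to 47 counts in the delayed libraries (log2 fold change 1.75 ± 0.625, edgeR adjusted p = 0.0482). The T cell receptor constant gene Trbc1 had 1, 1 and 5 counts against 5, 12, 7, 5 and 12 counts, so Trbc1 also passed the filter through other libraries. Cd6 went the other way, from 4.80, 6.20 and 3.24 CPM to 1.58 to 2.83 CPM (log2 fold change -1.05 ± 0.305, edgeR adjusted p = 0.0198), at a level in non-stroked WT mice of 5.01 CPM that is well above that of the other T cell genes named here. Igkc, the constant region of the immunoglobulin kappa light chain, was at 1.36, 0 and 1.51 CPM in the acute and at 8.45, 5.20, 3.31, 4.57 and 27.2 CPM in the delayed libraries (log2 fold change 3.30 ± 0.805, edgeR adjusted p = 0.0123). All acute libraries were below all delayed ones for Igkc, and its log2 fold change without acute 1, 2 or 3 was 3.65, 2.74 and 3.66. The NK receptor genes Klrb1c and Klrk1 had at most 3 and 4 counts in any acute library, against 6 to 19 and 6 to 22 counts in the delayed ones. Without acute 1, 2 or 3 the T cell median was 0.56, 0.63 and 1.13 and the NK cell median 1.65, 1.98 and 3.71. In a bulk piece fewer lymphocytes and less RNA in each cannot be told apart.

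The drug's own pathway was called about as often as all genes. Of 19 genes of calcineurin, NFAT and the FKBP proteins 1 was called higher and 0 lower (5.22% and 0.528% of all genes tested), 3 passed the adjusted p in each direction (1769 and 1696 of all 17031), and the median log2 fold change was -0.12 (-0.04 within the TF libraries). Nfatc4, an NFAT factor also present in neurons and vessel walls, was at 1.56, 1.42 and 2.36 CPM in the acute and at 3.18, 4.28, 4.63, 3.62 and 7.59 CPM in the delayed libraries. The groups did not overlap (log2 fold change 1.39 ± 0.292, edgeR adjusted p = 0.0102), and leaving out acute 1, 2 or 3 gave log2 fold changes of 1.29, 1.25 and 1.62. The following genes were picked for their role after their values were seen. Fkbp1a, which encodes FKBP12, the protein that tacrolimus binds, had 496, 365 and 378 CPM in the acute and 310 to 397 CPM in the delayed libraries (log2 fold change -0.24 ± 0.143, edgeR adjusted p = 0.244). Ppp3ca, the main catalytic subunit of calcineurin in brain, differed by -0.32 ± 0.126 on the log2 scale without passing (edgeR adjusted p = 0.0764). Rcan1, an NFAT-induced inhibitor of calcineurin, did not pass either (-0.10 ± 0.0814, edgeR adjusted p = 0.38). Nfatc1 passed below the minimum fold (log2 fold change 0.695 ± 0.205, edgeR adjusted p = 0.0214).

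Phagocytes that take up blood and myelin store iron and export lipid. Of 17 genes of heme, iron and lipid handling 8 were higher and 0 lower (median 1.09). Ftl1, the ferritin light chain, averaged 236 ± 167 and 501 ± 114 CPM, the cholesterol exporter Abca1 84.6 ± 51.7 and 210 ± 47.6 CPM, and the lipid droplet gene Plin2 10.9 ± 11.2 and 32.2 ± 12.5 CPM. Of these only Abca1 had no overlap between the groups. The median was 0.98, 0.83 and 1.82 without acute 1, 2 or 3.

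Blood-brain barrier genes of the endothelium were not called (0 of 20, median 0.27), and Pecam1, the gene of the endothelial marker CD31, was at 13.5, 21.0 and 16.9 CPM in the acute and at 18.1, 19.6, 19.4, 19.9 and 27.2 CPM in the delayed libraries (log2 fold change 0.28 ± 0.181, edgeR adjusted p = 0.271). The mean level of this list moved with the title prefix among stroked mice: it was at -0.45 in acute 1 and at -0.48 and -0.38 in the untreated stroke libraries with the prefix Imm2, but at 0.07 to 0.51 in all stroked TF libraries (log2 CPM relative to non-stroked WT). The median log2 fold change was 0.11, 0.48 and 0.31 without acute 1, 2 or 3, 0.15 within the TF libraries and 0.10 with the prefix as a covariate. Itm2a and Emcn, both markers of brain endothelium, passed below the minimum fold (0.78 and 0.57). Of 28 genes of sprouting, VEGF, angiopoietin and Notch 5 were higher (median 0.41), including Angpt2, a vessel-destabilising ligand (1.26 ± 0.514 against 3.64 ± 1.24 CPM, log2 fold change 1.52), and Thbs1, an inhibitor of angiogenesis (5.21 ± 4.42 against 26.5 ± 16.8 CPM, 2.34). Of 14 pericyte and smooth muscle genes 3 were higher (median 0.51). Anpep, the gene of the pericyte marker CD13, had 5.45, 3.41 and 17.4 CPM against 15.2, 26.6, 31.4, 16.5 and 47.3 CPM (log2 fold change 1.65 ± 0.431, edgeR adjusted p = 0.0133), and Tagln, a contractile protein, was higher without overlap (1.22). Sprouting medians without acute 1, 2 or 3 were 0.30, 0.37 and 0.38.

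Neuronal transcripts were lower in delayed than in acute WT-Tacr mice, by less than 2-fold for most. Of 16 genes of neurofilaments and neuronal identity 11 passed the adjusted p in the lower direction and 0 in the higher. Over all 17031 genes tested 1696 and 1769 did so. None of the 16 reached the minimum fold (0.528% of all genes tested were called lower), and the median log2 fold change was -0.48. Rbfox3, the gene of NeuN, was at 494, 356 and 274 CPM in the acute and at 264, 257, 229, 239 and 211 CPM in the delayed libraries (log2 fold change -0.64 ± 0.168, edgeR adjusted p = 0.0133). All delayed values were below all acute ones, while untreated stroke stood at 414 and 391 CPM in the Imm2 and at 234 and 246 CPM in the TF libraries. The mean level of the list split by prefix in untreated stroke in the same direction, at -0.15 and -0.28 in the Imm2 and at -0.51 and -0.44 in the TF libraries (log2 CPM relative to non-stroked WT). It was 0.01, -0.09 and -0.33 in acute 1, 2 and 3 and -0.64 to -0.40 in the delayed libraries, and within the TF libraries the median log2 fold change was -0.35. Nefl, Nefm and Nefh, the light, medium and heavy neurofilament chains, fell by 0.49, 0.70 and 0.69 on the log2 scale, each without overlap, and the synaptic gene Snap25 fell from 2770 ± 506 to 1760 ± 179 CPM. Among glutamate and GABA receptors 8 of 18 passed the adjusted p, all lower, with a median of -0.29 (1696 of all 17031 genes passed lower). Grin1, the obligatory NMDA receptor subunit, had 840, 674 and 532 CPM against 434 to 532 CPM and fell by 0.48 on the log2 scale. Without acute 1, 2 or 3 the neuronal median was -0.39, -0.44 and -0.62, and the receptor median -0.21, -0.20 and -0.39.

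Cortical layer genes supplied 3 of the 90 lower calls (3 of 17 members, median -0.20). Tbr1, a transcription factor of deep-layer projection neurons, was at 221, 144 and 96.5 CPM in the acute and at 76.8, 98.0, 63.1, 65.8 and 60.9 CPM in the delayed libraries (log2 fold change -1.08 ± 0.237, edgeR adjusted p = 0.0102). Lamp5, a membrane protein of cortical neurons, averaged 247 ± 91.4 and 113 ± 24.7 CPM (log2 fold change -1.13). Pvalb, the calcium buffer of fast-spiking interneurons and a member of the interneuron list, was lower too (-1.03 ± 0.322, edgeR adjusted p = 0.0274). For Tbr1, Lamp5 and Pvalb acute 3 lay within the delayed range. Immediate early genes, which follow neuronal activity through calcium signals, had 0 of 22 members called and a median of -0.18, and Egr3 passed below the minimum fold (-0.66). Myelin genes had 0 of 16 called (median 0.19). The layer median without acute 1, 2 or 3 was -0.23, -0.19 and -0.36.

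**Figure D4:**
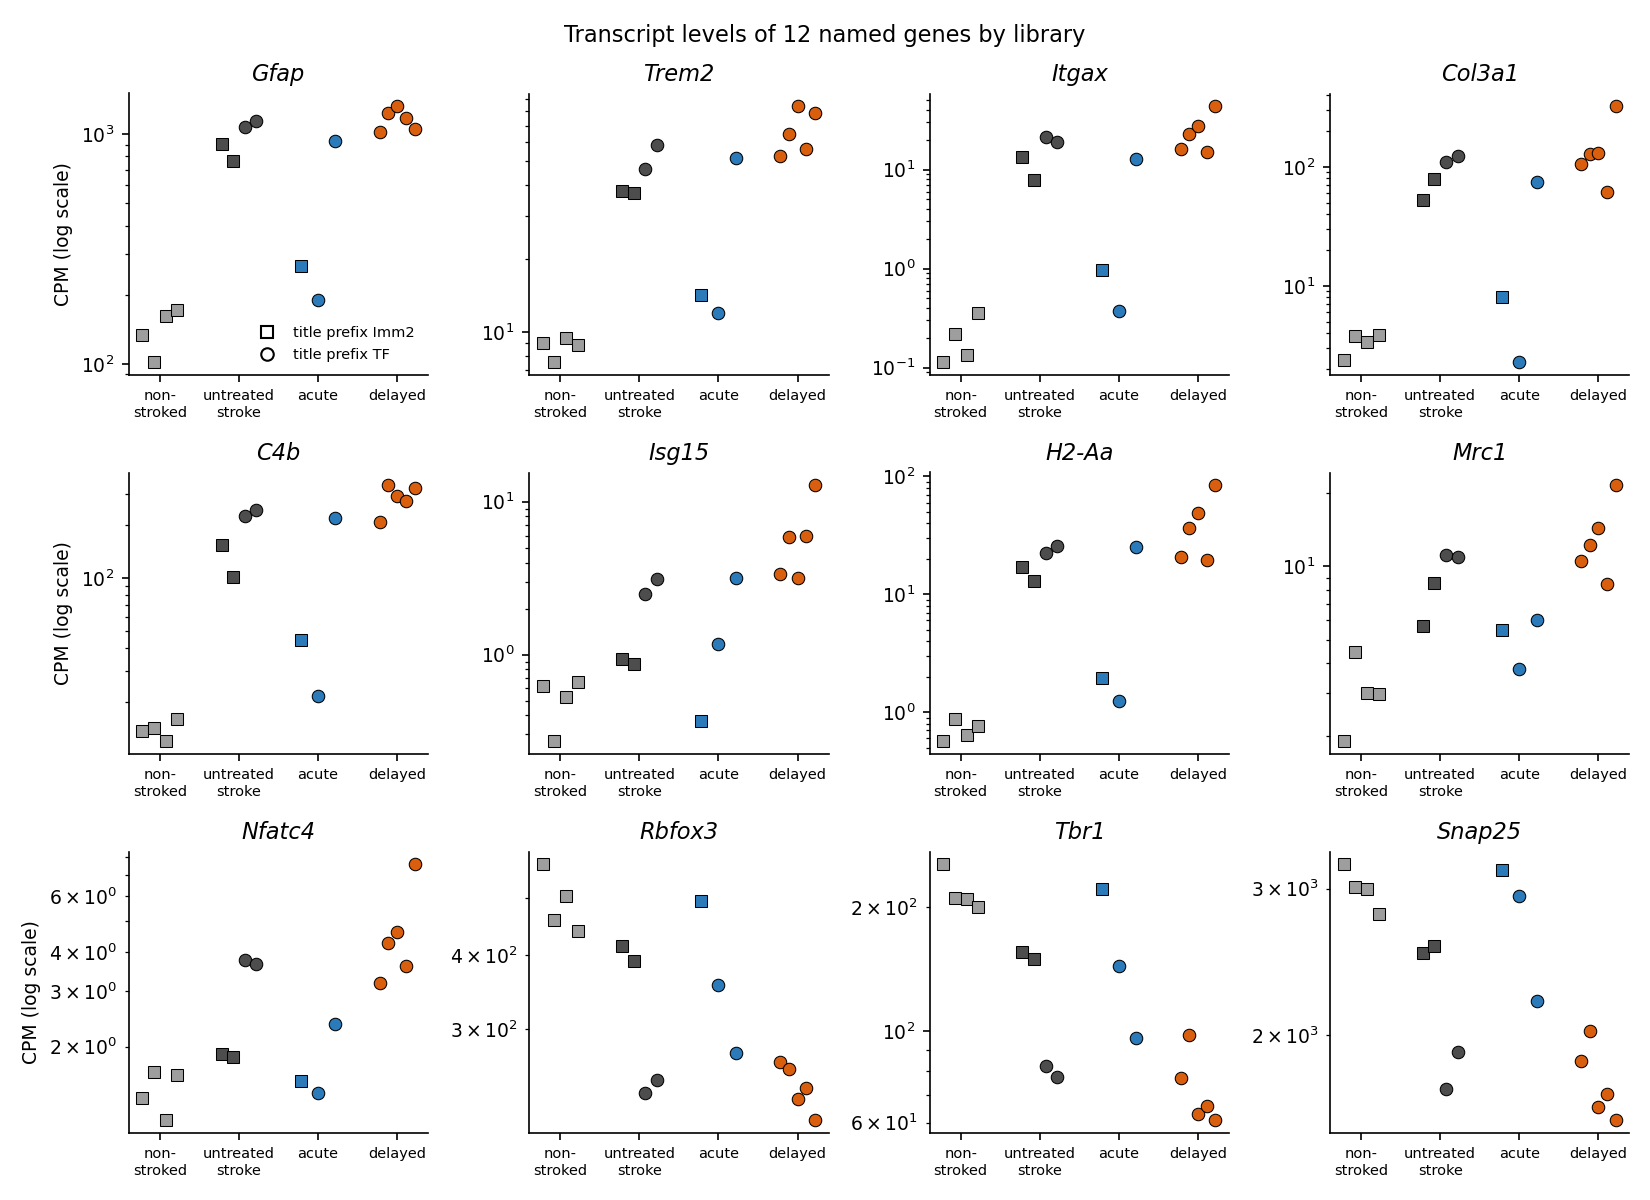
CPM on a log axis of 12 named genes in 4 non-stroked, 4 untreated stroke, 3 acute and 5 delayed WT libraries; each point is 1 library, squares have the title prefix Imm2 and circles TF. For Gfap, Trem2, Itgax, Col3a1, C4b and H2-Aa acute 1 and acute 2 sit below acute 3 and all delayed libraries, while for Mrc1 and Nfatc4 all 3 acute libraries lie below all delayed libraries.

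The genes called with the smallest p included several outside the lists above. Hfe, a regulator of iron uptake related to MHC class I, was at 4.77, 3.87 and 7.73 CPM in the acute and at 10.3, 14.1, 13.6, 11.3 and 17.7 CPM in the delayed libraries (log2 fold change 1.29 ± 0.216, edgeR adjusted p = 0.0102). Mamdc2 had 1.44, 1.37 and 2.90 CPM against 4.34 to 16.9 CPM (2.16), the sorting nexin Snx20 0.998 ± 0.442 against 2.46 ± 0.419 CPM (1.30), and Vamp8, a protein of vesicle fusion in secretory cells, 6.93 ± 3.37 against 15.3 ± 2.95 CPM (1.15). Sh2d2a, an adaptor of T cell signalling, had 1, 1 and 0 counts in the acute and 4, 14, 13, 9 and 18 counts in the delayed libraries (edgeR adjusted p = 0.0102). With so few acute counts Sh2d2a passed the filter on low counts through other libraries. Its difference may follow partly from the filter and lends no support. In Hfe, Mamdc2, Snx20, Vamp8 and Sh2d2a the groups did not overlap. A choice by smallest p favours such genes, so this adds no support. Of all 889 genes called higher 490 did not overlap, as did 28 of the 90 called lower. In the lower direction Wnt2b, a secreted Wnt ligand, was at 2.14, 2.71 and 0.850 CPM against 0.523 to 0.869 CPM (log2 fold change -1.43 ± 0.273, edgeR adjusted p = 0.0102), and acute 3 was inside the delayed range. Tgm3, a transglutaminase, was at 5.01, 4.99 and 3.17 CPM against 1.36 to 2.27 CPM without overlap (-1.33), as was Agmat, an enzyme that breaks down agmatine, at 2.33 ± 1.36 against 0.715 ± 0.206 CPM (-1.67). Cbln4, a synapse organiser, had 19.4 ± 5.25 and 9.03 ± 1.85 CPM (-1.10).

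Markers of tissue outside the cortex differed between libraries, and choroid plexus genes were low in all acute libraries but in only 1 delayed library. Of 16 choroid plexus genes 6 were called higher (median 3.69), with a summed level of 268 to 290 CPM in the acute and 278 to 1540 CPM in the delayed libraries, of which delayed 2 had the lowest. Non-stroked WT libraries spanned 292 to 1520 CPM. Prlr, the prolactin receptor, which choroid plexus epithelium makes, showed this split with 0.584, 0.458 and 0.888 CPM in the acute and 18.1, 0.945, 16.6, 17.6 and 20.4 CPM in the delayed libraries. Tmem72 and Folr1 were likewise lowest among the delayed libraries in delayed 2, at 0.346 and 0.598 CPM. Without acute 1, 2 or 3 the list had 0, 0 and 4 called genes. The summed level of 12 striatal genes was 1210, 664 and 2310 CPM in the acute and 1230 to 2660 CPM in the delayed libraries, acute 1 lying just below delayed 2, and 0 of them were called (median 0.62). Drd1, the dopamine receptor of striatal neurons, was at 32.0, 19.0 and 71.3 CPM against 36.3 to 88.1 CPM. The striatal sum thus put acute 1 and acute 2 low and acute 3 among the delayed libraries, as the inflammatory lists did. Other libraries differed in this: delayed 2 had 1230 CPM, yet stood at 125.9% on the 1152 stroke genes. Untreated stroke had 949 and 619 CPM with Imm2 (83.7% and 82.7%), and 1800 and 1670 CPM with TF (110.8% and 122.9%). The part of striatal tissue in the inflammatory lists was not tested. The other 11 gene lists, of 175 genes tested in all, held 6 genes called higher and 2 lower, with medians from -0.45 to 1.13. Of the higher ones 2 were in the hippocampus list (9 genes tested). The mean level of that list was -1.51, -1.89 and -1.83 in the acute and -1.57 to 0.01 in the delayed libraries (log2 CPM relative to non-stroked WT).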

How the data were processed

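Cortical polyA RNA of stroked and non-stroked mice was sequenced as stranded libraries. The deposited values are raw counts of reads per gene, 1 column per library, made by the authors' core facility from the reads; the aligner, its genome build, the counter and its strand setting are not given in the sources used here. Without the strand setting, overlapping and antisense genes are uncertain, as are near-identical copies. Of 25746 gene IDs, 25712 were found in GENCODE M21 (GRCm38), which gave the symbols.

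Groups came from the sample labels. All 29 libraries in 8 groups were fitted in 1 model with edgeR 4.0.16 (R 4.3.3; TMM scaling, edgeR's own filter on low counts by group, quasi-likelihood test, Benjamini-Hochberg adjustment over all 17031 genes tested), and delayed minus acute was the contrast. A call needed an adjusted p under 0.05 together with a change of over 1 log2 unit. SE is the absolute log2 fold change over the root of the F statistic. The code was tested on simulated data. Depth was 17789044 to 43403413 counts per library, and genes with few counts have wide errors. DESeq2 1.42.0, limma 3.58.1, other filters, scalings and left-out libraries were tried as alternatives. Libraries set alone and the Ddx3y covariate were chosen after seeing the data.

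Genes were named by a rule: those of proteins the study stained, the 10 called with the smallest p in each direction, the called members of each list or otherwise up to 4 with the smallest p, and the leading genes of the fit that moved the calls most; not all are printed, and some are not reported here. The members and lists were chosen with earlier results of these data known.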

Additional observations from a re-analysis of the deposited data

Results flagged for a closer look

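Of 129 values tested in the 5 delayed libraries, 17 (13.2%) had a highest or lowest library whose gap to the next, divided by the range, was above Dixon's critical value of 0.71. Chance flags about 5% of groups of independent, normally distributed values. Many of these genes and lists moved together in the same libraries and CPM values are skewed, so the 13.2% does not measure an excess over chance. Delayed 5 was the highest for all that follow. Among matrix and macrophage genes it stood apart for Mmp12 at 119 CPM (next 32.9), Col3a1 at 323 CPM (130), Postn at 21.1 CPM (12.8), Lox at 21.6 CPM (9.85) and Bgn at 137 CPM (74.5). Among genes of interferon and antigen presentation it did so for Cxcl10 at 7.89 CPM (next 3.62), Tap1 at 20.9 CPM (10.8) and Nlrc5 at 15 CPM (7.37). Lymphocyte genes gave the same library for Igkc at 27.2 CPM (next 8.45), Klrk1 at 1.09 CPM (0.504) and Klrb1c at 0.942 CPM (0.414). It was also the highest for Pecam1 at 27.2 CPM (next 19.9) and for the mean level of the blood-brain barrier list at 0.51 (next 0.25, log2 CPM relative to non-stroked WT).

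Delayed 2 was the lowest for choroid plexus genes. Prlr was at 0.945 CPM (next 16.6), Folr1 at 0.598 CPM (6.23) and Tmem72 at 0.346 CPM (10.9), and the mean level of the choroid plexus list was -1.27 (next 1.89). The causes were not tested.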

How the results depend on the processing

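The count of genes called (979) became 0 in edgeR's fit of the 8 tacrolimus libraries, 0 in that of the 12 stroked WT libraries (5158 at an unadjusted p below 0.05), 0 within the TF libraries, 423 with the title prefix as a covariate, 638 with presence of Ddx3y as a covariate and 3465 with no minimum fold. Acute 1 alone gave 1698 and acute 3 alone 0 (207 at an unadjusted p below 0.05). Leaving out 1 library gave 0 to 1927 calls, 3849 to 7625 genes at an unadjusted p below 0.05, and 3226 to 8257 genes without overlap. With all libraries 3033 genes had no overlap, a count that cannot fall when a library is left out. RLE size factors (984), no filter on low counts (959), a mean of at least 1 CPM (782), DESeq2 (1089) and limma voom (1021) stayed within 1.5 times. Of 102 named genes, 7 stayed on their side of the threshold without acute 1, 7 without acute 2, 99 without acute 3 and 74 without delayed 5. Acute 3 alone turned Drd1 from 0.67 to -0.15 and the striatum median from 0.62 to -0.17; no other printed gene chosen by the naming rule and no other of the 29 list medians changed sign there, and none did in the alternatives that keep at least 2 acute libraries. Leaving out 1 library gave medians of 0.39 to 0.79 for homeostatic microglia, 0.99 to 2.83 for reactive astrocytes, 0.99 to 2.11 for complement, 0.65 to 1.27 for cytokines, 1.14 to 2.89 for chemokines, 1.14 to 2.22 for interferon-stimulated genes, 0.95 to 2.08 for MHC class I, 1.65 to 3.71 for NK cells, -0.62 to -0.39 for neuronal identity, -0.36 to -0.18 for cortical layers, 0.27 to 1.29 for striatum and 0.83 to 1.82 for iron and lipid handling. The median moved to 1.2 for NK cells at a mean of at least 1 CPM, and within the TF libraries to -0.04 for calcineurin, -0.35 for neuronal identity and -0.17 for glutamate and GABA receptors. The cause was not tested. No paired analysis was possible because the acute and delayed titles share no replicate numbers.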
